A study of Mus musculus with 8 samples.

Results

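The 10 chemokine genes described here are ones that senescent cells are known to secrete, followed through 8 liver arrays: Cxcl1, Cxcl2, Cxcl5, Cxcl9, Cxcl10, Cxcl12, Cxcl16, Ccl2, Ccl5 and Ccl20. They are 10 of the 19321 genes named on the array, and each was read from the probe with the highest mean deposited intensity over the 8 arrays. The rule names the genes for their place in the senescence-associated secretory programme and uses no measured value to pick a gene. The members were, however, chosen with earlier results of these data known. All 10 had a probe, but only 8 had a deposited value on every array; Ccl20 had one on the tumour arrays alone and Cxcl5 on a single array. To be tested, a gene needed a value on each array of some group, a condition that kept 9 of the 10 and left out Cxcl5.

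Every mouse, including those on normal diet, received the carcinogen DMBA, a polycyclic aromatic hydrocarbon, as a neonate of 4 to 5 days, and was then fed for 30 weeks. The groups were tumour tissue of livers on high fat diet (3 arrays, mice 117, 186 and 1), non-tumour tissue of livers on high fat diet (3 arrays, the same 3 mice) and liver tissue of DMBA-treated mice on normal diet (2 arrays, mice 117 and 120). The mouse with number 117 on normal diet is a different animal from number 117 on high fat diet, and arrays without DMBA were not analysed here. Strain, sex and genotype are not given in the sources used here, and whether an array held 1 nodule or several is not given either.

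Chemokines are small secreted proteins that bind heparan sulfate on cells and matrix and draw leukocytes along their gradient through G protein-coupled receptors. Those with the ELR motif (Cxcl1, Cxcl2, Cxcl5) attract neutrophils through Cxcr2, the interferon-inducible Cxcl9 and Cxcl10 attract activated T and NK cells through Cxcr3, and Ccl2 attracts monocytes through Ccr2. Cxcl12 is made constitutively by stromal and sinusoidal cells of the liver and acts through Cxcr4. In senescent cells, where NF-kB and C/EBP beta drive much of the secretory programme, the ELR chemokines are among its best known products.

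Promoters are shown first, because 5 of the 10 genes lie on chromosome 5 (Cxcl5, Cxcl1, Cxcl2, Cxcl9 and Cxcl10) and a pair of them share a stretch of promoter. RefSeq promoter windows of build GRCm38.p6, each from 250 bases before to 50 bases after the annotated start, were matched to 6 of the 10 members; Cxcl5, Cxcl16, Ccl2 and Ccl5 are named only. Cxcl1 (chr5:90891135-90891244, plus strand) and Cxcl2 (chr5:90903789-90903898, plus strand) are printed from 5′ to 3′ up to the base before the start, with the NF-kB consensus matches in capitals.
Cxcl1: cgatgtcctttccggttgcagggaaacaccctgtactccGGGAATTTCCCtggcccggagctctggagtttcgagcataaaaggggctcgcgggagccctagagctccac
Cxcl2: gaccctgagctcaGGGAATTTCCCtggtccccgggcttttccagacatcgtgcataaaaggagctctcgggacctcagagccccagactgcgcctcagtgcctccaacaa
Each of these windows held 2 overlapping matches to the NF-kB consensus of 10 bases, on opposite strands, which begin at -71 in Cxcl1 and at -97 in Cxcl2. The longest run of bases common to both printed stretches was GGGAATTTCCCTGG, 14 bases long, and it starts at the same positions as the NF-kB match. A TATA-like ATAAAA followed at -34 in Cxcl1 and at -57 in Cxcl2. On either strand, the NF-kB consensus occurred in 4.51% of all 32851 windows, the exact letters GGGAATTTCC in 0.0883% (29 windows), and ATAAAA in 18.5%.

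The interferon-inducible pair lies further along the same chromosome. Cxcl10 (chr5:92348890-92349104, minus strand) carries in capitals, from left to right, an interferon-stimulated response element, 2 NF-kB matches, an AP-1 site and a CCAAT box, and Cxcl9 (chr5:92328080-92328189, minus strand) carries a CCAAT box. Both are printed on the gene's own strand.
Cxcl10: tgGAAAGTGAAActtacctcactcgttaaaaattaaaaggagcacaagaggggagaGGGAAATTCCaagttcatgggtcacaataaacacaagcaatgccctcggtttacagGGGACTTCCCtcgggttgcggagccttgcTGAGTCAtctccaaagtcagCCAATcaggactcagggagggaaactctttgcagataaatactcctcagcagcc
Cxcl9: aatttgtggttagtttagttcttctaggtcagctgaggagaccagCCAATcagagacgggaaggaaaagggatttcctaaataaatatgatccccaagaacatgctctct
In the Cxcl10 window the response element (GAAA and GAAA with 2 bases of any kind between them, found in 3.44% of all windows) began at -213, the NF-kB matches at -159 and -103, the AP-1 site (TGANTCA, 7.81%) at -74 and the CCAAT box (37.4%) at -54. The Cxcl9 window had CCAAT at -65 and an AP-1 site at +32, past the printed stretch, and the letters of the NF-kB consensus were not in it. Cxcl12 (chr6:117168425-117168534, plus strand) is shown with its GC boxes in capitals.
Cxcl12: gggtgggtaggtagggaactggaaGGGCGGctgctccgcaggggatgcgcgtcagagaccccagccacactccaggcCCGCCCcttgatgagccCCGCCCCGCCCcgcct
Its whole window held 5 matches to the GC box CCGCCC, 2 of them overlapping, a motif present in 35.7% of all windows, and the NF-kB consensus was not among its letters. The Cxcl2 window held 1 GC box too, at -139, before the printed stretch. The Ccl20 window held 1 NF-kB match at -80. The GAS motif TTCNNNGAA, present in 8.3% of all windows, was in none of the 6. Such matches describe letters and show no binding.

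**Figure D1:**
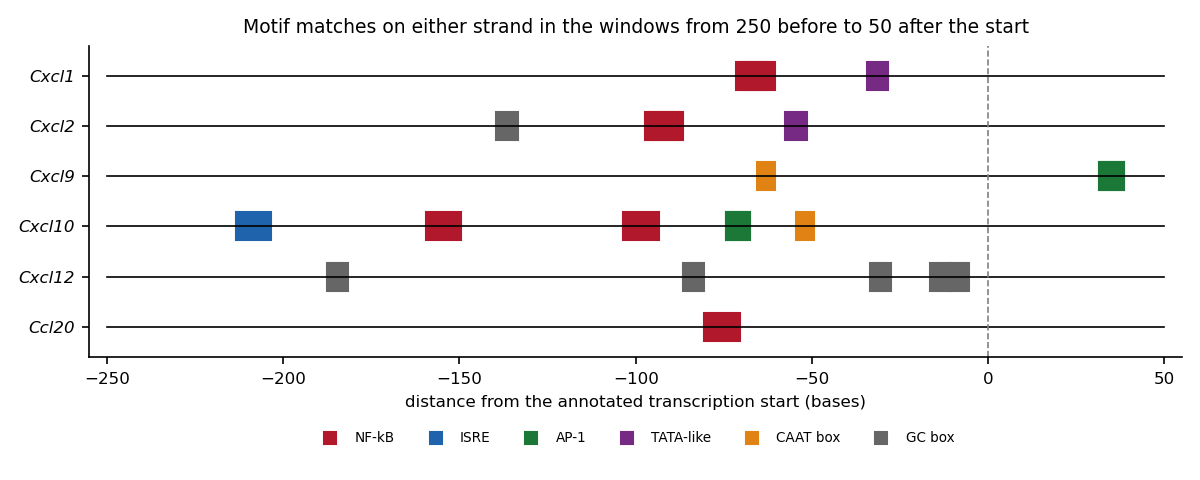
Map of motif matches in the 6 matched promoter windows; the horizontal axis is the distance in bases from the annotated transcription start, each line is 1 gene and each coloured box is a match on either strand. Cxcl1, Cxcl2, Cxcl10 and Ccl20 carry NF-kB matches, Cxcl2 also has 1 GC box, and Cxcl12 has GC boxes at 5 positions, 2 of which overlap and are drawn as 1 box.

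Levels below are deposited normalized intensities, scaled by the authors so that the median listed probe of each array is 25, and fold changes come from a separate limma fit to scanner signals, given as log2 fold change ± SE with an adjusted p over 16799 genes. An offset of 50 was added before the log, which shrinks the folds of dim probes, so the plain ratio of mean intensities is given beside some of them. The offset equals 38.9 to 45.1 deposited units on the high fat diet arrays and 60.0 to 64.6 on those of normal diet. Between 81.8% and 88.5% of probes were listed per array, and with 2 or 3 arrays a group their number limits the precision. Each array was read at several scanner gains, and the slope between the first pair of readings was 0.464 to 0.465 on all 6 high fat diet arrays against 0.444 to 0.445 on both normal diet arrays, so that scan setting and diet cannot be told apart in any comparison with normal diet. The 3 comparisons share arrays and are not independent of each other.

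Between tumour and non-tumour tissue 2 of the 9 chemokines tested changed, Cxcl1 upward and Cxcl12 downward. Of all 16799 genes 25.4% were called in this comparison, 12.0% higher and 13.4% lower, so a count of 1 in each direction is near the background. Against normal diet liver, tumours had 5 of 9 members higher (Cxcl1, Cxcl2, Cxcl9, Cxcl16 and Ccl2) and Cxcl12 lower, where 27.8% of all genes were called, 12.9% higher and 15.0% lower. Non-tumour tissue against normal diet liver gave 0 calls with limma, where 3.84% of all genes were called. At an unadjusted p under 0.05 that comparison had 2 members, Cxcl16 and Ccl2, of 9, a level reached by 20.0% of all genes. The median log2 fold change of the 8 members listed on every array was 0.13 for tumour over non-tumour, 0.27 for non-tumour over normal diet and 0.51 for tumour over normal diet, while the median of all genes was -0.01 in each. Using the local background reading of each spot in place of the blanks ended every one of these member calls. Under it the log2 fold changes of Cxcl12 were -1.20 for tumour over non-tumour and -1.51 for tumour over normal diet, with larger errors (SE 0.43 and 0.48), while that of Cxcl1 for tumour over non-tumour was 1.07 (SE 0.93). A fit of the 2 compared groups alone ended the calls on Cxcl1, Cxcl2 and Ccl2 against normal diet liver (adjusted p 0.0550, 0.0719 and 0.0571), at log2 fold changes of 2.22, 0.20 and 0.79. Where a single normal diet array is left out in what follows, the normal diet arm holds 1 array and is assumed to vary like the other groups.

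**Figure D2:**
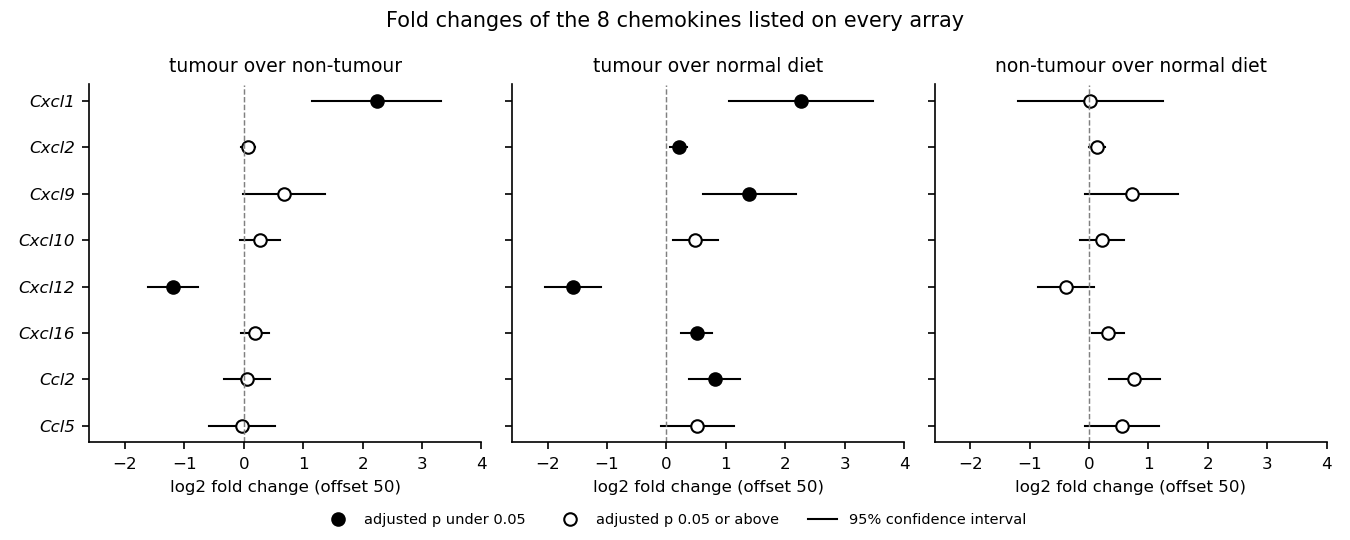
Log2 fold change (horizontal axis, offset 50) of the 8 chemokines listed on every array in the 3 comparisons, with points as estimates and bars as 95% confidence intervals; filled points have an adjusted p under 0.05. Cxcl1 and Cxcl12 lie apart from 0 on opposite sides in both tumour panels, and no point is filled for non-tumour over normal diet.

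Cxcl1, a neutrophil attractant of the ELR class, had the largest log2 fold change of the 9 members in both tumour comparisons. It read 321.2, 639.1 and 1262.5 in the tumours of mice 117, 186 and 1, then 86.6, 180.9 and 110.3 in their non-tumour tissue, and 164.7 and 102.8 in normal diet livers 117 and 120. Every tumour exceeded every other array, the 3 tumours spanned a wide range, and the non-tumour and normal diet values overlapped. Within each mouse the tumour was higher, 3.71-fold in mouse 117, 3.53-fold in mouse 186 and 11.4-fold in mouse 1. Against normal diet liver the ratio of means was 5.54 (log2 fold change 2.26 ± 0.51, adjusted p 0.0188), close to the 5.88 against non-tumour tissue (2.24 ± 0.45, adjusted p 0.0139). The call against non-tumour tissue held in 16 of 17 alternatives and came nearest to the threshold among the left-out arrays without non-tumour array 117 (adjusted p 0.0495); the exception was the local background correction (0.850), under which 103 genes were called higher and 33 lower in all. That against normal diet ended without normal diet array 117 (log2 fold change 2.47, adjusted p 0.0740) or 120 (2.05, adjusted p 0.111). Non-tumour over normal diet was 0.02 ± 0.51, with a 95% interval from -1.19 to 1.24 that leaves changes of more than 2-fold in either direction possible.

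Cxcl2, the neighbour of Cxcl1 with the same NF-kB stretch, was dim everywhere. Its values were 4.7, 13.1 and 9.4 in tumours, 3.9, 8.1 and 6.4 in non-tumour tissue, and 1.4 and 2.1 on normal diet. All 6 high fat diet arrays lay above both normal diet arrays, whereas tumour and non-tumour values overlapped. It rose in tumours against normal diet liver (log2 fold change 0.20 ± 0.06, adjusted p 0.0392). The normal diet values lie close to the lowest listed values of those arrays, 1.3 and 1.5, so no ratio of intensities over normal diet is given. This call ended when any of 5 single arrays was left out (normal diet 117 or 120, tumour 186 or 1, non-tumour 1; adjusted p 0.0637 to 0.175) and with median scaling (0.233). Against non-tumour tissue the tumour was higher in all 3 mice by ratios of 1.2, 1.62 and 1.47, but the test was not passed (0.07 ± 0.05, adjusted p 0.357). Non-tumour over normal diet was 0.13 ± 0.06 (adjusted p 0.270).

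Cxcl5, the remaining ELR chemokine, was listed only in tumour 1, at 1.5, and was not tested. On chromosome 5 the order of these genes is Cxcl5, Ppbp, Pf4, Cxcl3, Cxcl15, Cxcl1 and Cxcl2, and the genes between the members were looked up for their position. Cxcl3, a further ELR chemokine, averaged 59.4 in tumours, 66.5 in non-tumour tissue and 69.2 on normal diet (tumour over non-tumour adjusted p 0.638). Ppbp averaged 32.2, 42.2 and 38.0 in the same order, and Cxcl15 had no value on any array. Pf4, the platelet factor that does not carry the ELR motif, averaged 23.3 in tumours and 23.6 in non-tumour tissue against 8.75 on normal diet (tumour over normal diet 0.35, adjusted p 0.0260). Cxcr2, the receptor of the ELR chemokines, was dim at 5.13 ± 1.24 in tumours, 4.20 ± 1.23 in non-tumour tissue and 5.10 ± 1.56 on normal diet (tumour over non-tumour adjusted p 0.651).

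**Figure D3:**
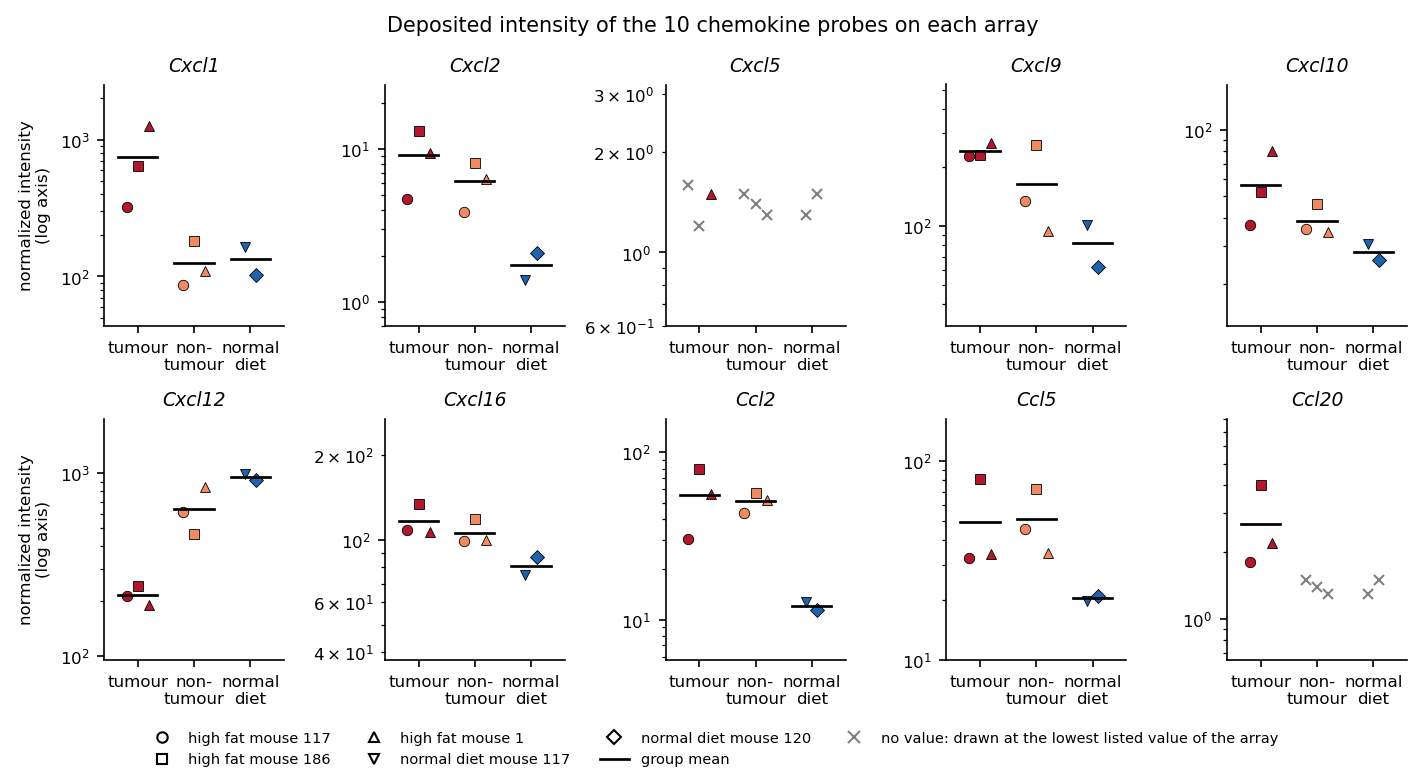
Deposited normalized intensity (log axis, its own range in each panel) of the 10 chemokines on the 8 arrays, by group; point shapes mark the mouse, lines the group mean, and crosses arrays with no value. Cxcl1 is highest in the 3 tumours, Cxcl12 lowest in them, and Ccl2 and Ccl5 are higher on all 6 high fat diet arrays than on both normal diet arrays.

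Cxcl9, which attracts T and NK cells through Cxcr3, reached 227.8, 231.2 and 265.4 in tumours, 135.2, 261.8 and 94.2 in non-tumour tissue, and 102.0 and 61.8 on normal diet. The tumours were alike, the non-tumour arrays were not, and non-tumour 186 lay among the tumours. In mouse 186 the tumour stood below its own non-tumour tissue (ratio 0.883), while in mice 117 and 1 it stood above (1.69 and 2.82). Tumour over non-tumour did not pass (log2 fold change 0.68 ± 0.29, adjusted p 0.146), and passed once non-tumour array 186 was left out (1.00, adjusted p 0.0124). Cxcl9 rose in tumours against normal diet liver, with a ratio of means of 2.95 (1.40 ± 0.32, adjusted p 0.0216), a call that ended without either normal diet array, tumour 117 or tumour 1 (log2 fold change 1.21 to 1.59, adjusted p 0.0517 to 0.127). Non-tumour over normal diet was 0.72 ± 0.32 (adjusted p 0.284).

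Cxcl10, the other Cxcr3 ligand here, was at 37.2, 52.3 and 80.2 in tumours, 35.5, 46.0 and 34.7 in non-tumour tissue, and 30.4 and 25.9 on normal diet. The groups form a step from tumours down to normal diet, with overlap between tumour and non-tumour arrays only. Within the mice the tumour ratio was 1.05, 1.14 and 2.31, so mouse 1 held most of the difference. None of the comparisons passed the test, with log2 fold changes of 0.27 ± 0.14 for tumour over non-tumour (adjusted p 0.220), 0.22 ± 0.16 for non-tumour over normal diet (0.515) and 0.49 ± 0.16 for tumour over normal diet (0.0613). The last crossed the threshold in 5 alternatives, among them blank-subtracted signals (adjusted p 0.0261) and the authors' values (0.0306). Their receptor Cxcr3 was listed on 5 of 8 arrays at 1.8 to 5.8 and did not pass the test (tumour over non-tumour adjusted p 0.184).

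Cxcl12, the stromal ligand of Cxcr4, was the member that fell in tumours. It read 213.5, 241.1 and 189.7 in tumours, 616.9, 468.2 and 837.7 in non-tumour tissue, and 993.7 and 923.4 in normal diet livers. No groups overlapped, and each tumour lay below its own non-tumour tissue, at ratios of 0.346, 0.515 and 0.227 in mice 117, 186 and 1. Tumours fell by 1.19 on the log2 scale against non-tumour tissue (SE 0.18, adjusted p 0.00455) and by 1.58 against normal diet liver (SE 0.20, adjusted p 0.00237). Non-tumour over normal diet was -0.39 ± 0.20 (adjusted p 0.339, 95% interval -0.86 to 0.09). The other Cxcl12 probe averaged 156 ± 68.0 in tumours, 363 ± 54.5 in non-tumour tissue and 373 ± 4.95 on normal diet. On that probe tumours fell by 0.95 against non-tumour tissue (adjusted p 0.0488), and tumour over normal diet did not pass (-0.84, adjusted p 0.0916). Non-tumour over normal diet had the opposite sign there (0.11, adjusted p 0.895). Neither probe passed for that step between diets, and the difference between the probes was not tested.

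The group means of both Cxcl12 receptors ran in the opposite order to those of the ligand. Cxcr4, its signalling receptor, read 22.1, 32.6 and 25.8 in tumours, 18.6, 20.8 and 17.4 in non-tumour tissue, and 13.8 and 11.3 on normal diet. Its groups did not overlap, and it rose in tumours against non-tumour tissue (log2 fold change 0.17, adjusted p 0.0354) and against normal diet liver (0.33, adjusted p 0.00412). Cxcr4 was 1 of 2 receptors called higher against non-tumour tissue, a count that became 1 without non-tumour array 117 or with the authors' values. These alternatives were counted for the receptors as a list and not for Cxcr4 alone. Ackr3, which scavenges Cxcl12, averaged 23.7 ± 4.71 in tumours, 15.0 ± 5.10 in non-tumour tissue and 6.80 ± 3.39 on normal diet, and rose in tumours against normal diet liver (0.41, adjusted p 0.0226), while tumour over non-tumour did not pass (adjusted p 0.156). Dpp4, the membrane protease that trims the amino terminus of several chemokines, known best for human CXCL12 and CXCL10, averaged 156 ± 20.1 in tumours, 417 ± 23.3 in non-tumour tissue and 598 ± 12.4 on normal diet. Dpp4 fell by 1.07 on the log2 scale in tumours against non-tumour tissue (adjusted p 0.000605) and by 1.39 against normal diet liver (adjusted p 0.000306).

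**Figure D4:**
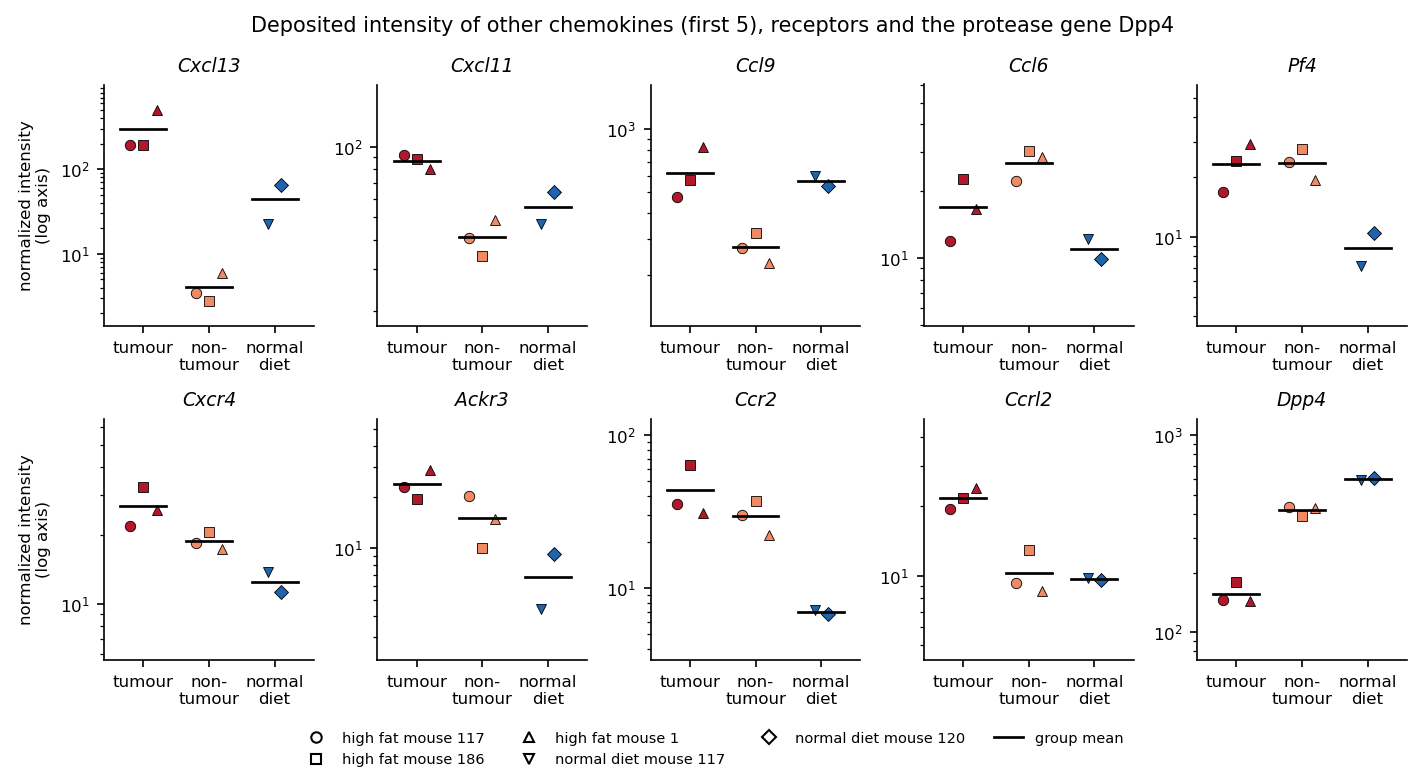
Deposited normalized intensity (log axis, its own range in each panel) of 5 other chemokines (upper row) and of 4 chemokine receptors and the protease gene Dpp4 (lower row) on the 8 arrays, with shapes for mice and lines for group means. Cxcr4 is highest and Dpp4 lowest in the 3 tumours, and Ccr2 is higher on all 6 high fat diet arrays than on normal diet.

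Cxcl16, a membrane-anchored chemokine that binds Cxcr6, spanned a narrow range of values. It was at 108.3, 134.1 and 106.7 in tumours, 99.0, 118.3 and 99.4 in non-tumour tissue, and 74.8 and 87.0 on normal diet. All high fat diet arrays lay above both normal diet arrays, and the tumour was higher in each mouse by ratios of 1.09, 1.13 and 1.07. Cxcl16 rose in tumours against normal diet liver (log2 fold change 0.51 ± 0.11, adjusted p 0.0172), a call lost without normal diet array 117 (0.42, adjusted p 0.116). Tumour over non-tumour did not pass without pairing (0.19 ± 0.10, adjusted p 0.234) and passed with the mouse as a replicate block (adjusted p 0.0361). Non-tumour over normal diet was 0.32 ± 0.11 (adjusted p 0.173) and passed with median scaling (0.49, adjusted p 0.0350). Cxcr6 was listed on 4 of 8 arrays at 3.2 to 5.2 and was not tested.

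Among the CC chemokines, Ccl2, the monocyte attractant, lay apart by diet more than by tissue. It read 30.5, 79.5 and 56.7 in tumours, 43.5, 57.1 and 52.0 in non-tumour tissue, and 12.8 and 11.4 on normal diet. High fat diet arrays lay above normal diet arrays without exception, and the tumour was higher in mice 186 and 1 (ratios 1.39 and 1.09) and lower in mouse 117 (0.701). Ccl2 rose in tumours against normal diet liver, with a ratio of means of 4.59 (log2 fold change 0.82 ± 0.18, adjusted p 0.0174), a call lost without normal diet array 117 (adjusted p 0.0901) or 120 (0.0869), at a log2 fold change of 0.83 in both cases. Non-tumour over normal diet had a ratio of 4.20 and missed the threshold (0.76 ± 0.18, adjusted p 0.0758), which it passed in 6 alternatives, among them the authors' values (1.98, adjusted p 0.00860) and an offset of 16 (1.32, adjusted p 0.0264). Tumour over non-tumour was 0.06 ± 0.16, with a 95% interval from -0.33 to 0.44 (adjusted p 0.841).

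Ccr2, the receptor of Ccl2 on monocytes, was arranged in the same order of groups. It read 35.5, 64.3 and 30.8 in tumours, 29.9, 37.0 and 22.4 in non-tumour tissue, and 7.2 and 6.7 on normal diet. Its rise in tumours against normal diet liver was 0.78 (adjusted p 0.0146), while non-tumour over normal diet was 0.53 (adjusted p 0.136).

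Ccl5, which attracts T cells and monocytes, was at 32.4, 81.6 and 33.9 in tumours, 45.5, 72.6 and 34.6 in non-tumour tissue, and 19.9 and 20.9 on normal diet. Again the high fat diet arrays lay above the normal diet ones, and both tissues of mouse 186 were highest. None of its comparisons passed, with log2 fold changes of -0.03 ± 0.23 for tumour over non-tumour (adjusted p 0.949), 0.55 ± 0.26 for non-tumour over normal diet (0.303) and 0.52 ± 0.26 for tumour over normal diet (0.186). Of its receptors, Ccr1 was listed on 6 of 8 arrays at 1.5 to 2.0 and Ccr3 on 3 arrays at 1.7 to 2.8.

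Ccl20, which recruits Ccr6-bearing lymphocytes and dendritic cells, was near the detection limit. It was listed at 1.8, 4.0 and 2.2 in the tumours and had no value on the 5 other arrays. The geometric mean of the tumours, 2.51, was set against the lowest listed signal of the other arrays, 1.40 on average in both groups. It was at least 1.80-fold higher than non-tumour tissue and than normal diet liver (limma adjusted p 0.0852 and 0.109 on the offset scale). This bound holds for the mean and not for each tumour. Tumour 117, at 1.8, lay close to the lowest listed value of its own array, 1.6. Ccl20 entered the test only through the tumours, a filter that favours a higher value there. Against non-tumour tissue it passed with blank-subtracted signals, with an offset of 16 and with no filter (adjusted p 0.000770, 0.0467 and 0.0373). With median scaling its tumour over normal diet value turned to -0.078. Ccr6 averaged 4.40 in tumours, 4.50 in non-tumour tissue and 5.40 on normal diet (tumour over non-tumour adjusted p 0.903).

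By group overlap on the deposited scale, tumour and non-tumour values of 2 of the 8 fully listed members did not overlap (Cxcl1 higher, Cxcl12 lower), while 38.5% of the 15339 fully listed genes did not, 15.0% higher and 23.5% lower. Between tumours and normal diet livers all 8 were without overlap, 7 higher and 1 lower, against 57.1% of all genes, 16.7% higher and 40.3% lower. Non-tumour and normal diet tissue did not overlap for 6 of 8, 5 higher (Cxcl2, Cxcl10, Cxcl16, Ccl2 and Ccl5) and Cxcl12 lower, against 45.1% of all genes, 13.1% higher and 31.9% lower. On the other Cxcl12 probe these groups overlapped (308.7 to 417.8 in non-tumour tissue, 369.6 to 376.6 on normal diet). Normal diet values of Cxcl2 lay close to the lowest listed ones. The share of members that were higher than on normal diet is thus above the share of all genes that were, for both tissues, a description without a test. It concerns members that were chosen with earlier results of these data known.

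The order of arrays within groups and the directions within mice were counted for the 8 members only, with no share over all genes. Differences of whole arrays and a trait of the chemokines can therefore not be told apart here. Tumour 117 listed the fewest probes (81.8%) and tumour 186 the most (88.5%). Non-tumour tissue of mouse 186 was the highest of its group for 7 of the 8 members and the lowest for Cxcl12. In tumours, mouse 186 was highest for 5 members (Cxcl2, Cxcl12, Cxcl16, Ccl2 and Ccl5) and mouse 1 for the other 3 (Cxcl1, Cxcl9 and Cxcl10), while mouse 117 was lowest for 6. Within mice, 4 members were higher in the tumour of all 3 (Cxcl1, Cxcl2, Cxcl10 and Cxcl16), Cxcl12 was lower in all 3, and Cxcl9, Ccl2 and Ccl5 differed in direction between mice.

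**Figure D5:**
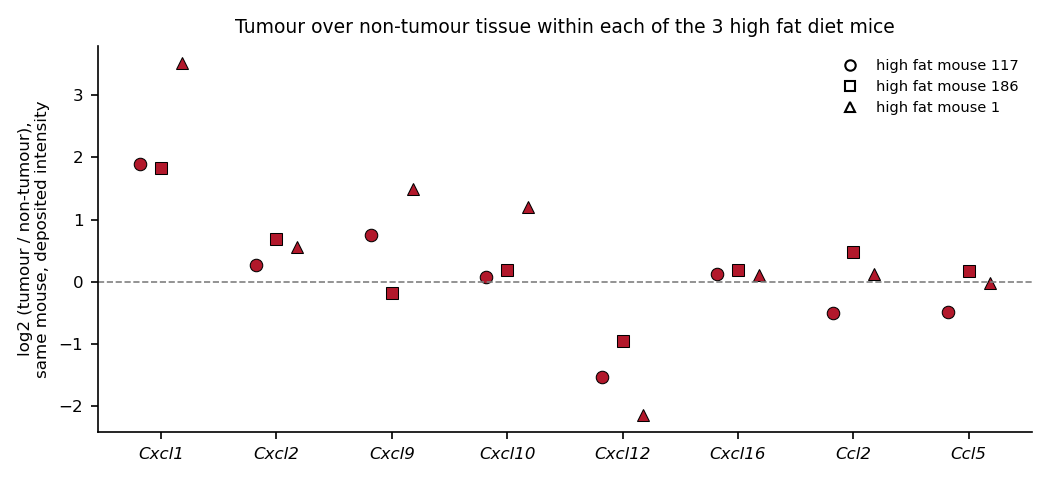
Log2 ratio of tumour over non-tumour deposited intensity (vertical axis) within each high fat diet mouse for the 8 chemokines listed on every array; shapes mark the mice and the dashed line no difference. All 3 points lie above the line for Cxcl1, Cxcl2, Cxcl10 and Cxcl16 and below it for Cxcl12.

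Marker lists of other cell types were set beside these values. Between tumour and non-tumour tissue, 12.0% of all genes tested were called higher and 13.4% lower. Tissue was measured in bulk, so fewer cells of a type and less RNA per cell cannot be told apart. Summed neutrophil markers, of 11 genes, ran from 371 to 507 in tumours, 466 to 500 in non-tumour tissue and 345 to 401 on normal diet, and 1 of 10 tested, Retnlg, was called between tumour and non-tumour tissue, while Mpo was listed on 1 array. Summed T and NK cell markers ran from 61.2 to 101, 70.4 to 84.3 and 68.6 to 73.2 in that order of groups, and 0 of 11 were called by limma in any comparison. Kupffer cell and macrophage markers summed to 1043 to 1476 in tumours, 1539 to 1906 in non-tumour tissue and 1105 to 1746 on normal diet. Of the 11, Clec4f and Vsig4 of resident Kupffer cells were lower in tumours than in non-tumour tissue (adjusted p 0.00801 and 0.00250), whereas Itgam and Cd14 were higher, Cd14 at 329 ± 131 against 47.7 ± 17.1 (adjusted p 0.00203). Itgam was dim, at 3.97 against 1.70 (log2 fold change 0.07, adjusted p 0.0484). Its non-tumour values lay close to the lowest listed values of those arrays, 1.3 to 1.5. Stellate and fibroblast markers summed to 1261 to 2166 in tumours, 1571 to 2281 in non-tumour tissue and 1030 to 1142 on normal diet, and of 10 tested 1 was called higher and 1 lower in tumours against non-tumour tissue. The collagen gene Col3a1 was at 573 ± 120 in tumours against 354 ± 53.5 in non-tumour tissue (adjusted p 0.0367), and Lrat, of quiescent stellate cells, at 21.1 ± 3.02 against 74.9 ± 4.35 (adjusted p 0.000423). Col3a1 and Lum were also called higher in non-tumour tissue than on normal diet (adjusted p 0.0367 and 0.0494). Endothelial markers summed to 526 to 749, 727 to 804 and 800 to 1004 in tumours, non-tumour and normal diet tissue, a sum in which Clec4g is the brightest (295 ± 90.6 in tumours, 499 ± 17.1 in non-tumour tissue). The called endothelial markers went the other way, with Pecam1 at 63.4 ± 18.9 in tumours against 27.3 ± 1.74 in non-tumour tissue (adjusted p 0.00852) and Cd34 at 46.9 ± 12.7 against 9.60 ± 3.12 (adjusted p 0.00739). Mesothelial markers summed to 503 to 634 in tumours against 173 to 231 in non-tumour tissue and 222 to 261 on normal diet. Only Msln carried this higher sum, at 531 ± 73.5 in tumours against 140 ± 10.8 in non-tumour tissue. The means of Upk3b (18.3 against 36.2), Upk1b (17.3 against 21.0) and Wt1 (7.27 against 7.57) were lower in tumours, none of them called. Lrrn4 was listed on 1 array. Dendritic cell markers summed to 73.2 to 129, 61.7 to 80.8 and 48.4 to 54.9, B and plasma cell markers to 54.4 to 82.6, 47.1 to 65.2 and 65.6 to 75.3, and cholangiocyte markers to 152 to 163, 142 to 158 and 130 to 140. Of 5 dendritic cell markers tested, Cd209a and Zbtb46 were called higher in tumours than in non-tumour tissue (adjusted p 0.00351 and 0.0347) and 0 lower. Of 6 cholangiocyte markers tested, 0 were called higher and Cftr lower (adjusted p 0.0160). Hepatocyte markers, which define the labelled tissue, were bright on all arrays, with sums from 162900 to 174300 in tumours, 144200 to 147700 in non-tumour tissue and 184500 to 189100 on normal diet. Of 7 tested, Apoa1 and Serpina1a were called higher in tumours than in non-tumour tissue (log2 fold change 0.86 and 0.71, adjusted p 0.00320 and 0.00173) and Cps1 lower, at 111 ± 53.4 against 295 ± 63.7 (adjusted p 0.0367). The part of any of these cells in the chemokine differences was not tested.

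The other chemokines of the array gave both directions. Of 22 tested, 3 rose and 3 fell in tumours against non-tumour tissue (median log2 fold change -0.01). Both counts are near the background, 12.0% of all genes called higher and 13.4% lower. The count of 3 higher was 3 with any single array left out, but the 3 lower became 0 without normal diet 117, normal diet 120 or tumour 117, and 1 without tumour 1 or any 1 of the non-tumour arrays. Cxcl13, the B cell attractant, read 192.7, 192.4 and 499.6 in tumours, 3.5, 2.8 and 5.9 in non-tumour tissue, and 22.6 and 65.2 on normal diet, without overlap of any groups (tumour over non-tumour 2.79, adjusted p 0.00235). Cxcl11, a further Cxcr3 ligand, averaged 87.0 ± 5.92 in tumours, 41.2 ± 7.06 in non-tumour tissue and 55.3 ± 12.0 on normal diet, and rose against non-tumour tissue (0.66, adjusted p 0.00421). Cxcl9 and Cxcl10 did not pass in that comparison, and the difference between the 3 ligands was not tested. Ccl9, a ligand of Ccr1, averaged 622 ± 179, 273 ± 46.1 and 565 ± 43.1 in the same order (tumour over non-tumour 1.25, adjusted p 0.00477). Those that fell were Ccl27a, a ligand of Ccr10 (by 0.31, adjusted p 0.0491), Ccl25, a ligand of Ccr9 (by 0.22, adjusted p 0.0333), and Ccl6 (by 0.22, adjusted p 0.0337). Ccl6 was also the 1 gene of the list called between non-tumour and normal diet tissue, at 26.9 ± 4.20 against 11.1 ± 1.63 (0.37, adjusted p 0.0345).

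Of 17 chemokine receptors tested, 2 rose in tumours against non-tumour tissue (Cxcr4 and Ccrl2) and 0 fell, with a median of 0.05. The share of all genes called higher was 12.0%, near that of the receptors, and 13.4% were called lower. The count of 2 became 1 when any of 6 arrays was left out (either normal diet array, tumour 186 or 1, non-tumour 117 or 1), in the fit with mouse as a replicate block and with the authors' values. Ccrl2, which binds chemerin and holds it on the cell surface, averaged 21.7 ± 2.25 in tumours, 10.3 ± 2.36 in non-tumour tissue and 9.70 ± 0.141 on normal diet (0.27, adjusted p 0.00608). Genes that process or present chemokines changed between tumour and non-tumour tissue in 3 of 12 cases, near the 25.4% of all genes called. Besides Dpp4, Mmp14, a membrane metalloprotease, averaged 65.2 ± 22.4 in tumours against 27.0 ± 4.83 in non-tumour tissue (0.62, adjusted p 0.0131). Ext1, which elongates heparan sulfate, averaged 249 ± 41.0 against 203 ± 21.4 (0.38, adjusted p 0.00985).

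NF-kB and innate signalling genes, the pathway of the motif in the Cxcl1 and Cxcl2 promoters, gave calls in both directions. Of 22 tested, 4 rose (Ikbkb, Icam1, Relb and Nfkbie) and 2 fell (Cebpb and Nfkbia) in tumours against non-tumour tissue, with a median of 0.01. Over all genes 12.0% were called higher and 13.4% lower. The 4 higher became 2 without either normal diet array, non-tumour 186 or non-tumour 1, and with mouse as a replicate block, and 1 with the authors' values. The 2 lower became 0 without non-tumour 117, non-tumour 186 or tumour 117, and 1 without either normal diet array, non-tumour 1 or tumour 1. Ikbkb, an IkB kinase, averaged 194 ± 20.4 in tumours and 150 ± 11.2 in non-tumour tissue (0.40, adjusted p 0.00396), and Nfkbia, the inhibitor that NF-kB induces, 316 ± 40.6 and 503 ± 53.2 (-0.43, adjusted p 0.0447). Cebpb, the gene of C/EBP beta, averaged 1016 ± 200 in tumours, 2032 ± 89.9 in non-tumour tissue and 1574 ± 35.1 on normal diet (tumour over non-tumour -0.71, adjusted p 0.0227). Interleukin-6 was listed on 1 array, and Tnf on 4.

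Of 19 interferon-gamma response genes tested, 4 rose and 3 fell in tumours against non-tumour tissue (median -0.01). Beside this stand 12.0% of all genes called higher and 13.4% lower. The 4 higher became 2 without non-tumour 186, with median scaling and with the authors' values, and the 3 lower became 0 without non-tumour 186, non-tumour 1 or tumour 117, and 1 without tumour 1. The receptor gene Ifngr1 averaged 424 ± 166 in tumours against 125 ± 14.1 in non-tumour tissue (1.57, adjusted p 0.00349), and the GTPase gene Iigp1 2205 ± 101 against 1448 ± 113 (0.87, adjusted p 0.000829). Jak1, a kinase of that receptor, rose by 0.51 (adjusted p 0.0157). Gbp6, a guanylate-binding protein, was at 22.3 ± 7.03 in tumours against 65.8 ± 14.6 in non-tumour tissue (-0.72, adjusted p 0.0147). Ifng itself averaged 8.17 in tumours and 10.3 on normal diet (tumour over non-tumour adjusted p 0.276).

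The senescence-associated genes other than chemokines had 35 members tested, of which 10 rose and 2 fell in tumours against non-tumour tissue (median 0.14), and 14 rose and 1 fell against normal diet liver (median 0.19). Over all genes, 12.0% were called higher and 13.4% lower against non-tumour tissue, and 12.9% and 15.0% against normal diet liver. Among the genes of this list with a value on all 8 arrays, 8 rose against non-tumour tissue. With single arrays left out, 7 to 9 rose and 1 to 2 fell against non-tumour tissue (1 fell without non-tumour 186 or 1, or tumour 117 or 186), and the 14 became 6 without normal diet 117 and 7 without normal diet 120, while the 1 lower became 0 without normal diet 117 or tumour 1. Their largest called changes were in Cdkn2b, an inhibitor of cyclin-dependent kinases (3.57, adjusted p 0.000271), and Plat, the tissue plasminogen activator, at 111 ± 42.3 in tumours against 6.90 ± 0.361 in non-tumour tissue (1.61, adjusted p 0.00123). Cdkn2a, the other arrest gene of that locus, was listed on 4 arrays, all 3 tumours among them, at a tumour mean of 9.0, and entered the test only through the tumours. Icam1, Mmp14 and others stand on more than 1 of these lists. 

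The genes with profiles most like each called member were found by the root mean square difference of centred log2 values over the 8 arrays. These log2 values carry the offset of the limma fit, which shrinks the folds of dim probes. A small difference therefore need not mean a like change in plain intensity. For Cxcl1 these were Ier3 (0.313), Cd14 (0.362) and Alcam (0.400), where Cxcl1 itself varied with an SD of 1.28. Cxcl12 (SD 0.743) was followed most closely by Tmie (0.087), Mdh1 (0.119) and Apol7a (0.132). For Ccl2 (SD 0.410) they were Fcer1g (0.056), Bdh1 (0.104) and Ifi30 (0.111), and for Cxcl9 (SD 0.674) Hsd17b13 (0.205), Sh3bgrl (0.215) and Maff (0.223). Cxcl16 (SD 0.240) was nearest to Kmt5a (0.063), Rhoa (0.071) and Sprr1a (0.075), and Cxcl2 (SD 0.102) to Mdfic (0.029), Rbm18 (0.033) and Filip1l (0.037). In plain mean intensity, Bdh1 was at 1963 in tumours, 2156 in non-tumour tissue and 1566 on normal diet, against 55.6, 50.9 and 12.1 for Ccl2. Rhoa was at 675, 736 and 693 in that order, against 116, 106 and 80.9 for Cxcl16. Mdfic was at 22.1, 18.1 and 15.8, against 9.07, 6.13 and 1.75 for Cxcl2. Genes named for Cxcl1 and Cxcl9 were highest in tumours and those for Cxcl12 lowest, as was the member.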

How the data were processed

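RNA of 8 mouse liver samples was amplified, coupled to Cy5 and hybridised to 1-colour oligonucleotide arrays, per the labels' protocols. Set against the scanner readings, the deposited normalized intensity equals spot median less blank mean over 1 factor per array, and dim probes have no value. The scanner files hold spot intensity as deposited, before normalization, per the file headers. The software that made them is not given in the sources used here. For the tests, spot medians were corrected by normexp with 2736 blank spots as negative controls (offset 50), quantile normalized and fitted on the log2 scale with lmFit and eBayes of limma 3.58.1 in R 4.3.3 (1 mean per group, all 8 arrays, 5 residual and 1.49 prior degrees of freedom). Tests were 2-sided with Benjamini-Hochberg adjustment over 16799 of 19321 genes, with a threshold of 0.05, and the fit was tested on simulated data. Of 23473 probes 20690 had 1 symbol and 2783 none, and 0 symbols changed on matching 20556 gene numbers.

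Tumour and non-tumour arrays of the same mouse number belong to 1 animal per the labels, and their deviations from group means correlated at 0.443, 0.148 and 0.167. Alternatives covered the background correction, offset, normalization, dim-probe filter, the authors' values, each array left out, mouse as a block, the groups in the fit and the other Cxcl12 probe. The members, gene lists and tests were chosen with earlier results of these data known. Named genes are all members, their receptors, up to 4 called genes per list and comparison by size of change, the 3 nearest profiles of each called member, the genes between the members on chromosome 5, and single list or marker genes behind small counts or sums (Ccl25, Relb, Nfkbie, Cdkn2a, Il6, Tnf and the cell type markers), which were chosen after their values were seen.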

Additional observations from a re-analysis of the deposited data

How the results depend on the processing

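Of 426 member values recomputed under alternatives, 368 kept their direction and side of the threshold, 19 gained a call, 27 lost one and 12 changed sign. The count of members higher in tumour than in non-tumour tissue, 1, became 2 with blank-subtracted signals, an offset of 16 or no filter (Ccl20 in each), 2 in the paired fit with mouse as a replicate block (Cxcl16) and 0 with the local background, and ran from 1 to 2 when single arrays were left out; the 1 lower became 0 with the local background. For non-tumour over normal diet the 0 members higher became 2 with blank-subtracted signals (Cxcl2 and Ccl2), 1 with an offset of 16, the authors' values or only the 2 groups compared (Ccl2 in each), 1 with median scaling (Cxcl16), and 0 to 1 with single arrays left out. For tumour over normal diet the 5 higher became 0 with the local background, 2 with only the 2 groups compared, 7 with blank-subtracted signals (Cxcl10 and Ccl20 gained), 6 with an offset of 16 or the authors' values (Cxcl10 gained), and 0 to 5 with single arrays left out (0 without normal diet 117, 1 without normal diet 120, 3 without tumour 1); the 1 lower became 0 with the local background and with the other Cxcl12 probe. The replicate block changed no other member's call. Log2 fold changes that turned sign, none of them called, were for tumour over non-tumour Cxcl2 (-0.003), Cxcl16 (-0.042) and Ccl2 (-0.021) with the local background, Ccl2 without tumour 186 (range with single arrays left out -0.10 to 0.23) and Ccl5 without tumour 117, non-tumour 186 or tumour 1 (range -0.26 to 0.14); for non-tumour over normal diet Cxcl1 with the authors' values (-0.12), without normal diet 120 or non-tumour 186 (range -0.21 to 0.23), and Cxcl12 on its other probe (0.11); and for tumour over normal diet Ccl20 with median scaling (-0.078). Median scaling moved the split of all genes called between non-tumour and normal diet tissue to 1084 higher and 319 lower, against 304 and 341; the authors' values gave 1676 higher and 3579 lower between tumour and normal diet, against 2162 and 2513, with the median of all genes at -0.18 there and -0.11 for non-tumour over normal diet. The local background reading followed its own spot (rank correlation 0.913 to 0.959), and it left 103 and 33 genes called between tumour and non-tumour tissue, and 0 or 1 in each direction in each gene list. Causes of these changes, those under the local background included, were not tested. Slide or scan as a block was not run, since the files used here give no slide or scan identifier. Signal over background limits Cxcl2, Cxcl5 and Ccl20.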
